A study of Mus musculus with 14 samples.

Results

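The measurements described here are the base shares at 1 tryptophan codon of Dnmt3a, read by amplicon sequencing in mouse embryos into which a base editor had been injected at the zygote stage. They comprise every window that the deposited tables name Dnmt3a, which is 50 of the 306 windows of the series. Of these windows 38 came from edited embryos and 12 from control embryos. Among the 38 edited embryos, 24 carry the number of a labelled sample and 14 do not, and the latter were described by their values alone.

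The editor was hA3A-eBE3-Y130F, a cytosine base editor in which a Cas9 nickase is joined to an engineered human APOBEC3A deaminase and a uracil glycosylase inhibitor, so that C is converted to U and then read as T. Its mRNA was injected together with single guide RNAs (sgRNAs), which bring it to a 20-base protospacer beside a protospacer-adjacent motif (PAM). The Dnmt3a sgRNA was given to 4 groups of embryos, with 2 labelled samples in each: Dnmt3ab-DKO received the sgRNAs for Dnmt3a and Dnmt3b, Dnmt-TKO those for Dnmt1, Dnmt3a and Dnmt3b, 5KO those for Dnmt3a, Dnmt3b, Tet1, Tet2 and Tet3, and 6KO all of these. All embryos came from C57BL/6 males and F1 females, the latter B6D2F1 by the methods, and the sires carried an Oct4-EGFP transgene. Embryos were collected at E9.5 and E10.5 in Dnmt3ab-DKO, from E6.5 to E9.5 in Dnmt-TKO, from E7.5 to E9.5 in 5KO and from E6.5 to E8.5 in 6KO. The control embryos, 1 for each stage of each table, received editor mRNA and no sgRNA by the study's injection records. Each embryo is an injected founder sequenced whole, so that a mosaic embryo and one with 2 differing alleles cannot be told apart in these shares.

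Dnmt3a is one of the enzymes that place new methyl groups on CpG cytosines, and together with Dnmt3b it sets up the methylation of the embryo after implantation, whereas Dnmt1 copies existing marks to the new strand at replication. The Tet enzymes oxidise the methyl group and so lead to its removal. Tryptophan is encoded by TGG alone, and changing either G, or both, to A gives a stop codon. A guide on the opposite strand therefore presents a pair of target cytosines, and conversion of either one is enough to end the protein.

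The sgRNA site lies at chr12:3899923-3899942 (GRCm38), on the minus strand, while the gene is on the plus strand, and it matched the genome chromosomes 1 time. The site falls within a coding exon, exon 15 of 23 in transcript Dnmt3a-201, at chr12:3899864-3900047. The codon, at chr12:3899937-3899939, encodes W577 of 908 residues, in the ADD domain and 63.5% of the way along the protein. Positions were counted from 1 at the end of the protospacer far from the PAM, and flanking bases before it are negative. The window on the guide strand is shown because it holds all cytosines the editor could convert here, in capitals, and the gene-strand windows are shown to display the codon, in capitals, in its unedited state and after each possible conversion.

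Guide strand, all C: gCagttCCaggggtCttCCttaatgg

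Gene strand, unedited: ccattaaggaagaccccTGGaactgc

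Gene strand, C4 converted: ccattaaggaagaccccTGAaactgc

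Gene strand, C5 converted: ccattaaggaagaccccTAGaactgc

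Gene strand, both converted: ccattaaggaagaccccTAAaactgc

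From left to right the 6 cytosines of the guide strand are C-2, C4, C5, C12, C15 and C16. C4T and C5T each give W577*, as does their combination. The annotation held 4 complete coding transcripts with this codon in frame, and transcripts without it were not counted. In 2 of the 4, the shorter Dnmt3a-203 and Dnmt3a-205, it is W358 of 689 residues. The stop removes 332 residues in either form, including the SPCN motif of the catalytic site, which begins at residue 704 in Dnmt3a-201. The other cytosines change other codons: C12T gives D575N and C15T gives E574K, both ahead of the stop in the protein, C-2T gives C579Y behind it, and C16T is silent (K573K). C4 follows a T and C5 follows a C, and APOBEC3A is known to prefer cytosines that follow T.

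Nearly all reads carried the stop in every edited embryo that was sequenced. After injection of the Dnmt sgRNAs, with or without the Tet sgRNAs, the paper counts only part of its analysed blastocysts as mutant in all targeted genes. How the embryos described here were picked is not stated. Their shares, and the comparisons between sgRNA sets, therefore describe these embryos and not what injection yields. The T share at C5 lay between 95.1% and 99.8% over the 38 edited embryos, with a median of 99.3%, and it reached 99% in 20 of them and 97% in 32. In the 12 control embryos it lay between 0.194% and 5.03%, with a median of 1.03%. The edited and control values did not overlap. The share of reads that still had C at C5, and so the largest possible share of reads with an intact TGG codon, ranged from 0.181% to 4.84% over the edited embryos.

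C4 was close to its neighbour in every embryo. T at C4, which the tables give to the nearest percent, lay between 95% and 100% in the edited embryos, and its median was 99%. After rounding both shares to the nearest percent, C4 and C5 were equal in 34 of 38 embryos, C4 was higher in 2 and lower in 2. The widest gap was seen in Dnmt-TKO E6.5 embryo 2, where C4 had 96% T and C5 97.8%. The marginal shares imply that reads with T at both positions made up at least 90.1% to 99.8% of an embryo's reads, within 0.5 points either way for the rounding of C4, so that TAA was the main form of the codon in each of the 38.

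In the 8 labelled samples, each taken as the mean over its 2 to 4 embryos, T at C4 averaged 98.8% ± 0.993 and T at C5 98.8% ± 0.824 (SD, n = 8). The differences C4 minus C5 ran from -0.437 to 0.340 points and averaged -0.0194 ± 0.256 points (SD, n = 8), with C4 higher in 4 of 8 samples. A difference was not detected (exact two-sided sign-flip permutation test, p = 0.836, adjusted p = 0.929 over the 10 tests made, smallest possible p = 0.00781), and since C4 is rounded to the nearest percent, differences of this size are below what the shares resolve. The sign of the mean difference also turned with the removal of either Dnmt-TKO sample, to 0.0140 points without replicate 1 and 0.0403 points without replicate 2.

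**Figure D1:**
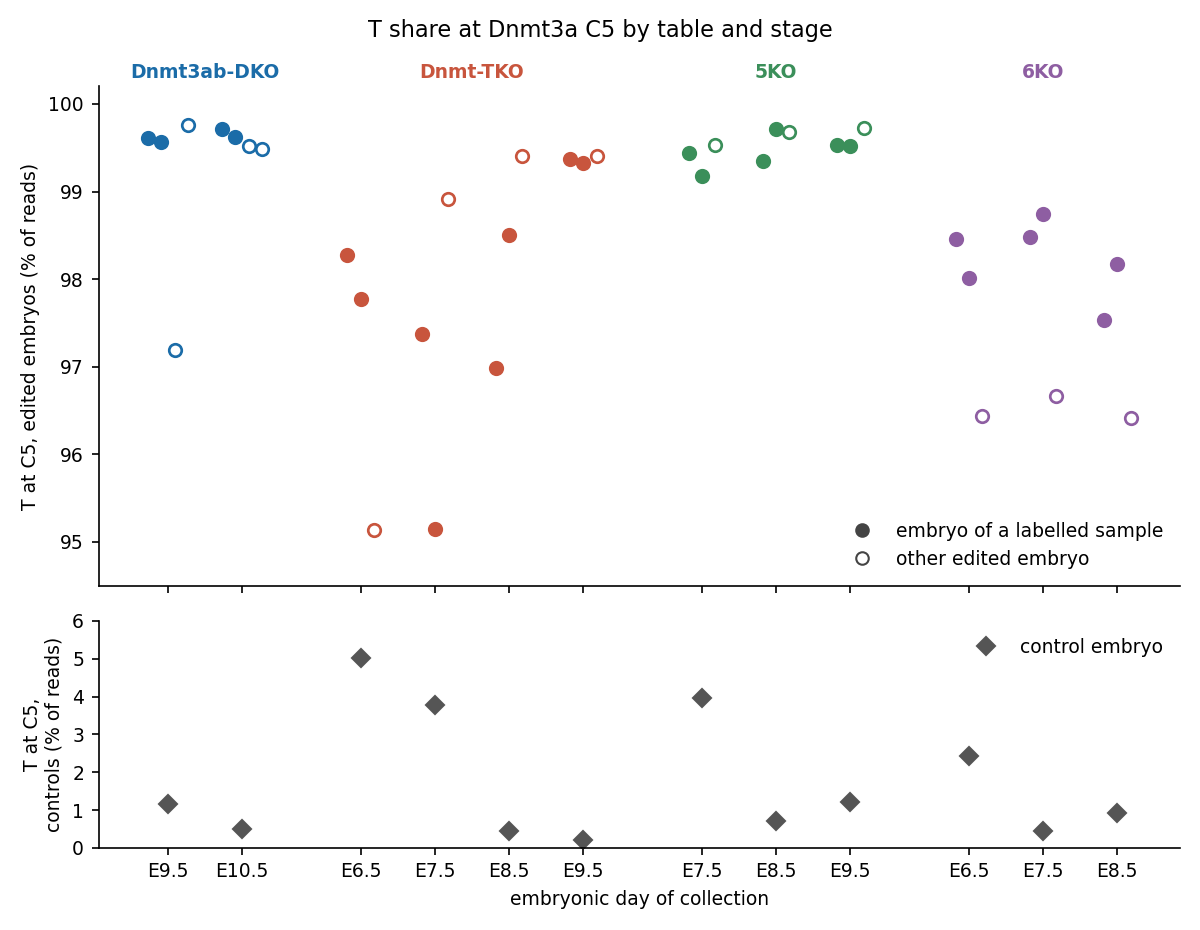
T share at C5 in percent of reads (y axes) for each embryo, by table and embryonic day (x axis). The upper panel holds the edited embryos on an axis that begins above 0, with filled points for embryos of labelled samples and open points for the others, and the lower panel holds the control embryos. All 9 embryos of 5KO lie above 99%, and none of the 9 embryos of 6KO do.

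The plot of C5 by embryo shows how the tables differed. In Dnmt3ab-DKO, the E9.5 embryos 1 to 4 had 99.6%, 99.6%, 97.2% and 99.8% T at C5. The E10.5 embryos 1 to 4 of that table had 99.7%, 99.6%, 99.5% and 99.5%. Embryo 3 at E9.5, which belongs to no labelled sample, was the low one of the 8, and it had 97% T at C4.

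In 5KO, the values at C5 were 99.4%, 99.2% and 99.5% for embryos 1 to 3 at E7.5, 99.3%, 99.7% and 99.7% at E8.5, and 99.5%, 99.5% and 99.7% at E9.5. In none of these 9 embryos did more than 0.734% of the reads keep C at C5, and the ranges of the 3 stages overlapped.

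In Dnmt-TKO, embryos 1 to 3 had 98.3%, 97.8% and 95.1% T at C5 at E6.5, and 97.4%, 95.1% and 98.9% at E7.5. At E8.5 they had 97.0%, 98.5% and 99.4%, and at E9.5 99.4%, 99.3% and 99.4%. The spread within a stage was wide at E6.5, E7.5 and E8.5 and narrow at E9.5, where all 3 embryos exceeded all those of E6.5 and E7.5. The lowest values of the whole set were here, in E6.5 embryo 3 and E7.5 embryo 2, in which 4.84% and 4.81% of the reads kept C.

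In 6KO, embryos 1 to 3 had 98.5%, 98.0% and 96.4% T at C5 at E6.5, 98.5%, 98.7% and 96.7% at E7.5, and 97.5%, 98.2% and 96.4% at E8.5. No embryo of this table reached 99%. Embryo 3, which is in no labelled sample, was the lowest at each of the 3 stages, and it was so at C4 as well, with 96%, 97% and 96%.

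The controls were not all near 0, and the 4 that were above 2% came from E6.5 and E7.5. T at C5 was 5.03% at E6.5, 3.79% at E7.5, 0.456% at E8.5 and 0.194% at E9.5 in the controls of Dnmt-TKO, and 3.97% at E7.5, 0.712% at E8.5 and 1.22% at E9.5 in those of 5KO. In the controls of 6KO it was 2.42% at E6.5, 0.437% at E7.5 and 0.911% at E8.5. In the controls of Dnmt3ab-DKO, the only ones of this gene for which the tables also give read numbers, it was 1.15% at E9.5 (534 of 46419 reads, 95% Clopper-Pearson interval 1.06% to 1.25%) and 0.499% at E10.5 (300.0 of 60138 reads, 0.444% to 0.558%), and these intervals cover counting error only, since the reads carry no molecular identifiers.

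T at C4 stood within 1 point of T at C5 in 12 of 12 controls, at 5%, 4% and 4% in the 3 with the highest shares, while C-2, C12, C15 and C16 were listed at 0 there. The origin of T in the controls was not tested. The Dnmt3b target in the same controls had between 0.283% and 3.17% T.

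The question of whether adding the Dnmt1 sgRNA went with another conversion at Dnmt3a was addressed by setting Dnmt-TKO and 6KO against Dnmt3ab-DKO and 5KO. The tables with the Dnmt1 sgRNA had lower T shares at both cytosines. At C5 the samples without it had 99.7% and 99.6% (Dnmt3ab-DKO replicates 1 and 2) and 99.4% and 99.5% (5KO replicates 1 and 2), which averaged 99.5% ± 0.103 (SD, n = 4). The samples with it had 98.0% and 97.7% (Dnmt-TKO) and 98.2% and 98.3% (6KO), which averaged 98.0% ± 0.267 (SD, n = 4).

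All 4 samples with the Dnmt1 sgRNA lay below all 4 without it. The difference at C5 was -1.50 points (exact two-sided permutation test over samples, 4 against 4, p = 0.0286, which is the smallest p the design allows), and with Benjamini-Hochberg adjustment over the 10 tests the exact p was 0.143. Counted as reads that kept C at C5, the samples averaged 1.87% ± 0.303 with and 0.355% ± 0.0778 without the Dnmt1 sgRNA (SD, n = 4 each), a ratio of 5.27. The result thus met the threshold alone and did not meet it after adjustment. Each sgRNA set was given to whole groups, and the test counts the 2 samples of a group as independent. With groups as units, 2 against 2 cannot reach 0.05. This limit holds for every test between sgRNA sets here.

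C4 followed the same order. T at C4 was 100%, 99.5%, 99.3% and 99.7% in the 2 Dnmt3ab-DKO and 2 5KO samples, and 97.8%, 97.2%, 98.3% and 98.3% in the 2 Dnmt-TKO and 2 6KO samples. The means were 99.6% ± 0.285 without and 97.9% ± 0.523 with the Dnmt1 sgRNA (SD, n = 4 each), a difference of -1.71 points with no overlap between the groups (exact two-sided permutation test, p = 0.0286, adjusted p = 0.143). C4 and C5 are read in the same molecules, so the second test is no independent support of the first.

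**Figure D2:**
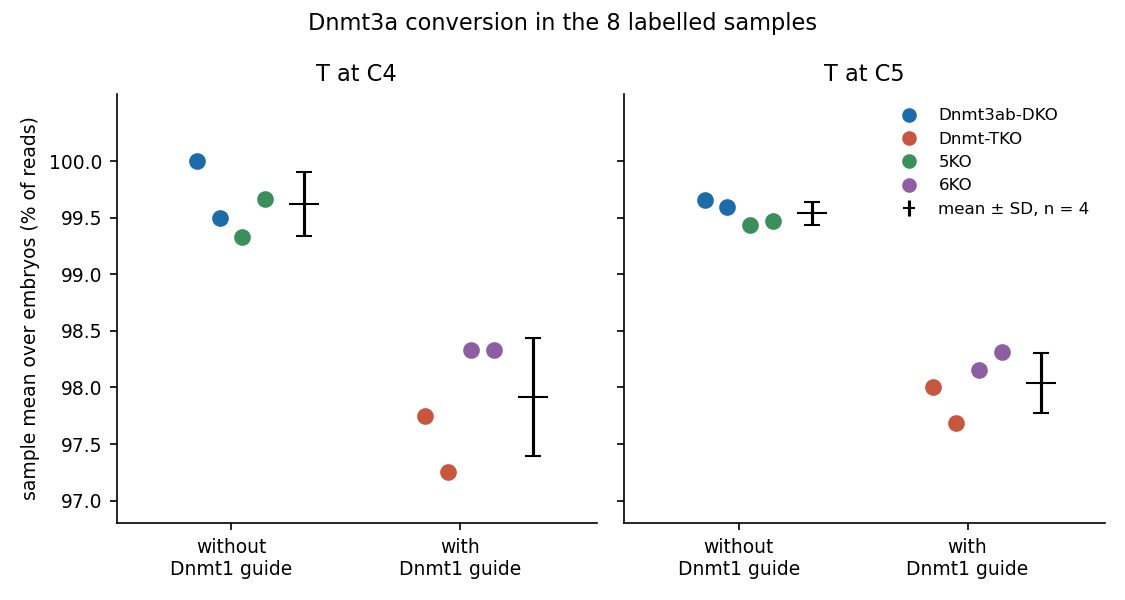
T share at C4 (left) and at C5 (right) in percent of reads (y axis, which begins above 0), for the 8 labelled samples without and with the Dnmt1 sgRNA (x axis). Each point is 1 sample, coloured by group, and the bars give mean and SD over 4 samples. The 4 samples with the Dnmt1 sgRNA lie below the 4 without it in both panels.

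The stages behind these samples were not the same. Dnmt3ab-DKO had no embryo before E9.5 and 6KO had none after E8.5, and every group was deposited as a separate table, so that guide set and table cannot be told apart. When Dnmt-TKO and 5KO alone were compared within E7.5, E8.5 and E9.5, which both have, the difference in T at C5 averaged -1.67 points, over 6 labelled embryos of each group. No p is given for it, since these embryos belong to 2 samples per group and 2 against 2 cannot reach 0.05. Unlike Dnmt-TKO, 5KO also received the Tet sgRNAs and, by the injection records, more editor mRNA. The Dnmt1 sgRNA cannot be told apart from these in that comparison. At E9.5 alone the difference of Dnmt-TKO from Dnmt3ab-DKO and 5KO was -0.208 points (2 samples against 4, exact permutation p = 0.0667, the smallest possible). Both of these comparisons were chosen after seeing the data.

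Over all edited embryos, labelled or not, 16 of 17 without and 4 of 21 with the Dnmt1 sgRNA had at least 99% T at C5. At E7.5 the 6 embryos with it lay between 95.1% and 98.9% and the 3 without it between 99.2% and 99.5%, with no overlap. At E8.5 the ranges were 96.4% to 99.4% and 99.3% to 99.7%, which overlapped through 1 Dnmt-TKO embryo. At E9.5 they were 99.3% to 99.4% in 3 embryos and 97.2% to 99.8% in 7, and the 3 lay inside the range of the 7.

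Over all stages, no difference was detected between the tables with and without the Tet sgRNAs. T at C5 averaged 98.8% ± 0.708 in the 5KO and 6KO samples and 98.7% ± 1.04 in the Dnmt3ab-DKO and Dnmt-TKO samples (SD, n = 4 each), a difference of 0.110 points (exact two-sided permutation test, p = 0.771, adjusted p = 0.929). At C4 the means were 98.9% ± 0.687 and 98.6% ± 1.33, a difference of 0.292 points (exact permutation p = 0.686, adjusted p = 0.929). The groups overlapped, and the difference at C5 turned negative when any of the Dnmt-TKO or 5KO samples was removed, at most to -0.240 points without Dnmt-TKO replicate 2, while that at C4 went to 0 without Dnmt-TKO replicate 1 and to -0.167 without replicate 2. The value depended on the stages taken: with E7.5 and E8.5 embryos alone, which leaves only Dnmt-TKO without the Tet sgRNAs, the 4 samples with them were higher than the other 2, by 1.82 points at C5 and 1.88 points at C4 (exact permutation p = 0.0667 each, the smallest that 4 samples against 2 allow). Dnmt-TKO had the Dnmt1 sgRNA and 5KO did not, so this subset partly mixes the Tet and Dnmt1 sgRNAs. The injection records of the study list more editor mRNA for 5KO and 6KO, so the Tet sgRNAs and the amount of editor cannot be told apart here.

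The stage of collection was compared within tables for E7.5 and E8.5, which Dnmt-TKO, 5KO and 6KO share. T at C5 averaged 98.4% at E8.5 and 98.1% at E7.5 in 6 labelled embryos each, a mean within-table difference of 0.314 points (exact two-sided permutation within tables, p = 0.648, adjusted p = 0.929). At C4 the difference was 0.50 points (exact permutation p = 0.667, adjusted p = 0.929). After the control of the same table and stage was subtracted, the differences were 2.35 points at C5 and 2.50 points at C4. The E7.5 controls of Dnmt-TKO and 5KO are the high ones described above. No p is given for these differences, since a single control was subtracted from both labelled embryos of its table and stage. Without subtraction both differences rested on Dnmt-TKO replicate 2 and were -0.308 and -0.167 points without it.

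The Dnmt3b site is the most similar one in the series: its sgRNA was used in the same 4 groups and its target C is also at position 5. In Dnmt3b, however, a single C in a CAG codon makes the stop. It is shown, with that C in capitals, beside the Dnmt3a protospacer with its pair in capitals.

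Dnmt3a, PAM TGG: gttCCaggggtcttccttaa

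Dnmt3b, PAM AGG: gtatCaggtaaagcctgaga

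T at the Dnmt3b target lay between 95.2% and 99.9% in the same 38 embryos. Over the 8 labelled samples Dnmt3a C5 had 98.8% ± 0.824 and the Dnmt3b target 98.2% ± 0.839 T (SD, n = 8). The paired differences ran from -0.969 to 2.34 points and averaged 0.585 ± 1.25 points (SD), with Dnmt3a higher in 5 of 8 samples (exact two-sided sign-flip permutation test, p = 0.219, adjusted p = 0.729). The mean difference was 0.335 points without Dnmt3ab-DKO replicate 2, and 0.137 points with E7.5 and E8.5 embryos alone.

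The sign of this difference went with the table. Dnmt3a was the more converted of the pair in 8 of 8 Dnmt3ab-DKO embryos and 9 of 9 5KO embryos, in 6 of 12 Dnmt-TKO embryos and in 0 of 9 6KO embryos. By sample, Dnmt3a minus Dnmt3b was 0.819 and 2.34 points in Dnmt3ab-DKO, 1.58 and 1.63 points in 5KO, -0.385 and 0.633 points in Dnmt-TKO, and -0.969 and -0.966 points in 6KO. The 4 samples with the Dnmt1 sgRNA lay below the 4 without it, by 2.01 points (difference -2.01, exact two-sided permutation test, p = 0.0286, the smallest possible, a comparison chosen after seeing the data). This difference contains the C5 shares already tested, so it is no independent support of the contrast at C5. The Dnmt3b target itself averaged 98.5% ± 1.02 with and 97.9% ± 0.659 without the Dnmt1 sgRNA (SD, n = 4 each), and these groups overlapped.

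**Figure D3:**
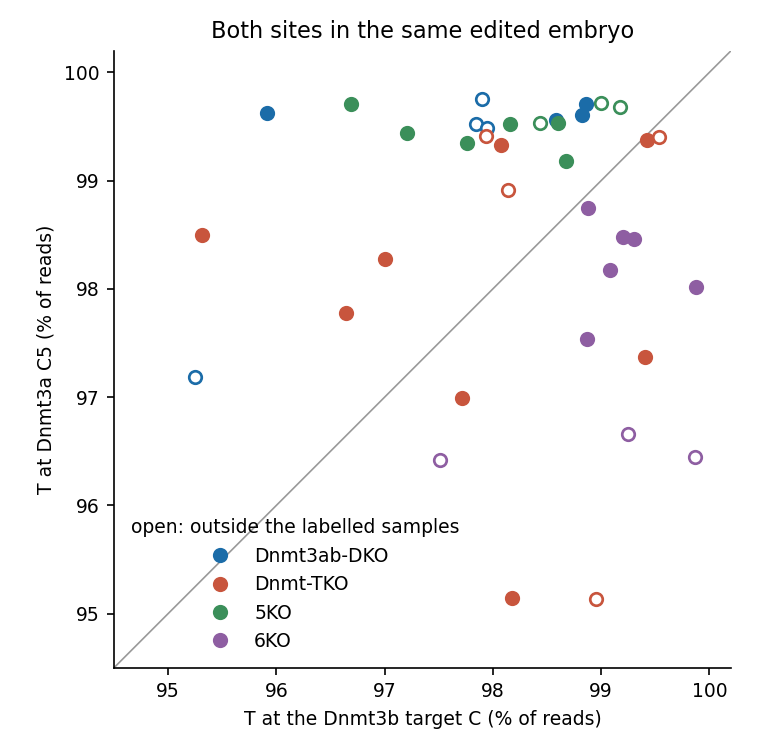
T share at Dnmt3a C5 (y axis) against T share at the Dnmt3b target (x axis), both in percent of reads on axes that begin above 0, for the 38 edited embryos coloured by table, with open points for embryos outside the labelled samples. The line marks equal shares: all embryos of Dnmt3ab-DKO and 5KO lie above it and all of 6KO below it.

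Against all sites edited in the same embryo, Dnmt3a C5 was the most converted of 5 targets in 6 of 9 5KO embryos and in none of the 6KO embryos. In 6KO it was the least converted of 6 targets in 3 of 9 embryos, and it lay below the Dnmt1 target in 8 of 9. In Dnmt-TKO it was below the Dnmt1 target in 11 of 12 embryos and the least converted of 3 targets in 5. The 3 Tet targets ranged from 95.5% to 99.9% in the 5KO embryos and from 93.2% to 99.2% in the 6KO embryos.

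Conversion outside the codon was rare, with single exceptions. C12, which would change the aspartate of D575N 2 residues ahead of the stop, was listed at 38% T in 5KO E9.5 embryo 2, at 4% in Dnmt-TKO E8.5 embryo 3, at 3% in Dnmt3ab-DKO E10.5 embryo 1, and at 2% in Dnmt-TKO E6.5 embryo 2 and 5KO E9.5 embryo 3. The other 33 embryos had 0 or 1%, and all 12 controls had 0. T of at least 1% was listed in 11 of 12 Dnmt-TKO embryos, against 1 of 8 in Dnmt3ab-DKO, 3 of 9 in 5KO and 2 of 9 in 6KO. C12 is given to the nearest percent, so 1% stands for any value within 0.5 points of it, and these counts were not tested. In 5KO E9.5 embryo 2 the codon itself was converted as in the other 5KO embryos, with 99.5% T at C5 and 100% at C4, so that at least 37.5% of its reads held C5T and C12T together, within 0.5 points for the rounding of C12.

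C12T averaged 0.646% ± 0.579 with and 3.62% ± 6.06 without the Dnmt1 sgRNA (SD, n = 4 each), and the difference of -2.98 points was within the spread (exact two-sided permutation test, p = 0.543, adjusted p = 0.929). Without 5KO replicate 2, which holds the embryo with 38%, it was 0.0347 points. With against without the Tet sgRNAs the means were 3.33% ± 6.22 and 0.938% ± 0.657, a difference of 2.40 points (exact permutation p = 0.943, adjusted p = 0.943) that became -0.715 points without that sample. A single embryo thus set both the size and the sign of the C12 comparisons.

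C-2 lies 2 bases ahead of the protospacer, and C-2T would change C579, which comes after the stop. It was listed at 12% in Dnmt3ab-DKO E10.5 embryo 3 and at 0 or 1% in all other edited embryos. A share of 1% or more was found in 18 of 20 embryos of Dnmt3ab-DKO and Dnmt-TKO, in 2 of 18 embryos of 5KO and 6KO and in 0 of 12 controls. Since shares are given to the nearest percent here, 1% stands for any value within 0.5 points of it, and the difference between the tables was not tested.

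**Figure D4:**
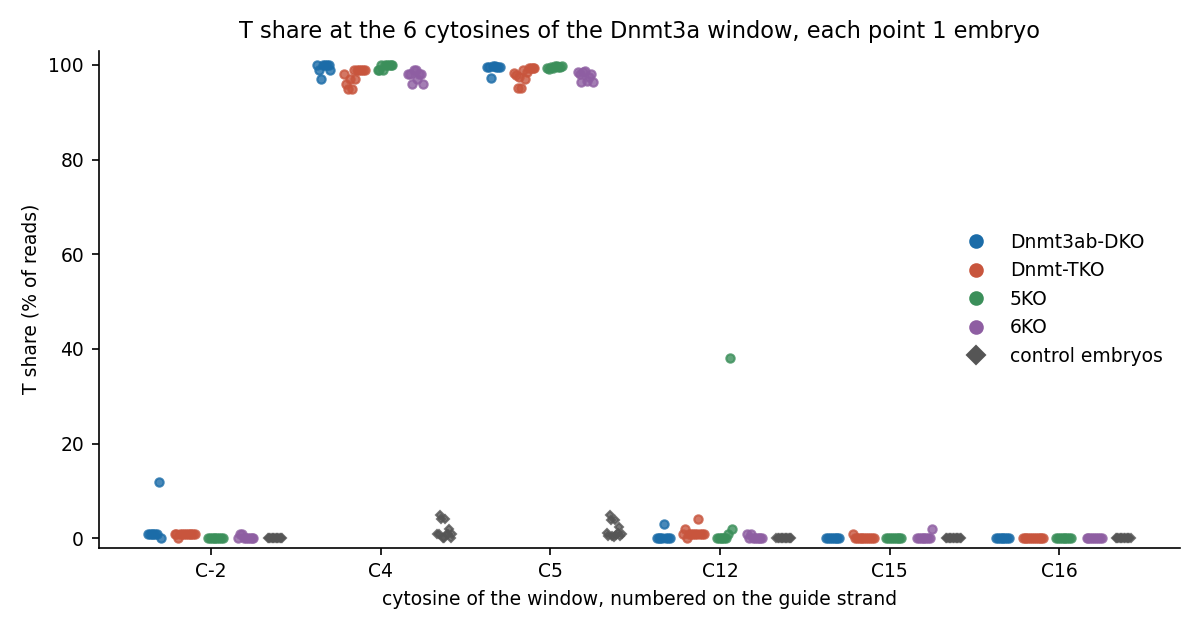
T share in percent of reads (y axis) at the 6 cytosines of the Dnmt3a window (x axis), with each point 1 embryo, coloured by table, and diamonds for control embryos. The edited embryos lie between 95% and 100% at C4 and C5 and near 0 elsewhere, apart from single embryos at 38% (C12) and 12% (C-2).

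The last cytosines of the protospacer were listed at or near 0. C15 was listed above 0 in 2 of 38 edited embryos, at 2% in 6KO E8.5 embryo 3 and at 1% in Dnmt-TKO E6.5 embryo 1, and C16 was listed at 0 in all. At the 20 positions of the window that hold no C on the guide strand, bases other than the reference made up at most 1% of the reads in edited as in control embryos.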

How the data were processed

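Target sites had been amplified from genomic DNA of single embryos, barcoded, pooled and sequenced with paired-end reads by the authors. The deposited values are fractions of an embryo's reads, 1 for each of the 4 bases at each of 26 window positions, in 1 block per embryo and gene; they were multiplied to percent here. The submitters' processing notes name build mm10 (GRCm38), and the aligner and read filters are not given in the sources used here. Indels are not listed there and were not analysed here. Fractions have 2 decimals at most bases and up to 6 at C5. Read numbers behind the edited embryos' shares are unknown, so that only the spread between samples shows their precision, and the sources used here do not state by what criteria embryos were picked. No pair of Dnmt3a windows was identical (0 pairs).

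The Dnmt3a blocks, written on the gene strand, were turned to the guide strand. Protospacers were located in GRCm38, both strands being searched, and gene models were taken from GENCODE M21 (Python 3.11.15, Biopython 1.88). An embryo belongs to a labelled sample of the same group and number; a sample's value averages its embryos of different stages, which are different animals. Tests were exact permutation tests over samples, or over embryos within tables for stage (SciPy 1.17.1), two-sided, with Benjamini-Hochberg adjustment over 10 tests, and were tested on made-up values with known answers. The stage tests were planned over 4 tables, but Dnmt3ab-DKO has no E7.5 or E8.5 embryo and 3 were used. Each p is the share of label arrangements that gave a difference at least as large as the observed one. Nothing states that the 2 samples of a group came from separate injections, so the free exchange of samples that the tests assume could not be checked. All 6 cytosines of the window were reported, Dnmt3b and Dnmt1 were used for comparison in the same embryos, and the Tet targets were given as ranges. Alternatives were another denominator, a logit scale, control subtraction, stages, medians, rounding, blocks and leaving out each sample. The site, the comparisons and the lists were chosen with earlier results of these data known.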

Additional observations from a re-analysis of the deposited data

Results flagged for a closer look

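C12T at 38% in 5KO E9.5 replicate 2 stood apart from the other 5 labelled embryos of 5KO, which had 0 to 1%: its gap to the nearest of them was 0.974 of the whole range, above Dixon's 95% critical value of 0.625 for 6 values. It was the only such embryo among 5 sets of labelled embryos tested. Sets of 2-decimal shares that spanned under 5 points were not tested (19 sets). The C12T set of 5KO passed that filter only through the embryo with 38%. Its outcome was thus largely fixed by the filter and lends the value no support. The usual rate of 1 set in 20 flagged by chance does not apply to it.

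Signals in embryos outside the labelled samples, where all controls had 0%, were seen at 4 places: C-2T at 12% in Dnmt3ab-DKO E10.5 embryo 3, C12T at 4% in Dnmt-TKO E8.5 embryo 3, C12T at 2% in 5KO E9.5 embryo 3, and C15T at 2% in 6KO E8.5 embryo 3. The cause of these values was not tested.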

How the results depend on the processing

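The 10 comparisons were recomputed under 154 alternatives in all, of which 123 kept direction and side of the 0.05 threshold, 9 kept the direction and lost the threshold, 21 turned the sign of a difference that had not met the threshold, and 1 brought such a difference to 0. The 123 include alternatives whose p is not relied on here. These are Dnmt-TKO against 5KO within stages at C5, C4 and C12, with embryos as units, and the stage comparisons after control subtraction. With the Dnmt1 sgRNA, T at C5 was lower under every alternative run, and so was T at C4. At C4 the p rose above 0.05 with the control subtracted (-1.83 points, exact permutation p = 0.0857), where the samples of a group share their controls. Subsets of stages leave 4 samples against 2, where no exact p can fall below 0.0667: the differences were -1.80 points (C5) and -1.50 points (C4) at E7.5 and E8.5, with an exact p of 0.133 each, and -0.208 points (C5, p = 0.0667) and -0.750 points (C4, p = 0.400) at E9.5 alone, a choice made after seeing the data. With the replicate number as a block, or with labels exchanged within the groups with and without the Tet sgRNAs, the differences stayed at -1.50 points (C5) and -1.71 points (C4), and the exact p was 0.0556, the smallest that those designs allow. Whether numbers pair the samples cannot be settled with 2 samples per group. The deviations of same-numbered samples correlated between -0.770 and 0.460 over 9 cytosines in 6 pairs of groups, above 0.1 in 3 pairs. The block changed no other call.

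Signs turned for C12T with against without the Dnmt1 sgRNA (0.50 points at E7.5 and E8.5, 0.125 with medians), for C5T with against without the Tet sgRNAs (-0.0601 on the logit scale, -0.533 points after subtracting the Dnmt3b target, chosen after seeing the data), for C12T with against without the Tet sgRNAs (-0.104 on the logit scale, -1.0 points at E7.5 and E8.5, -0.875 with medians) and for C4 against C5 (0.102 points with T over T plus C, 0.0218 after control subtraction, 0.0318 at E7.5 and E8.5). Leaving out 1 sample at a time gave -4.19 to 0.0347 points for C12T by the Dnmt1 sgRNA, -0.240 to 0.418 for C5T, -0.167 to 0.750 for C4T and -0.715 to 3.51 for C12T by the Tet sgRNAs, -0.0708 to 0.0403 for C4 against C5, 0.335 to 0.807 for Dnmt3a against Dnmt3b, and -0.308 to 0.937 (C5T) and -0.167 to 1.17 (C4T) for stage. For the Dnmt1 contrast at C5 it gave -1.59 to -1.38 points with an exact permutation p of 0.0286 each time. The causes were not tested. Stages differ between the groups, read depth is unknown in edited embryos, and 2 samples per group limit every comparison.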

Other observations

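Products other than T were scarce at C5. Reads with A or G there, which would give W577L or W577S in place of the stop, made up between 0.0196% and 0.243% of the reads in the 38 edited embryos, with a median of 0.078%, and between 0.0431% and 0.427% in the 12 controls, with a median of 0.109%. The highest control values, 0.424% and 0.427%, were those of Dnmt3ab-DKO, and the order differed between tables. In 6KO at E6.5 the 3 edited embryos had 0.214%, 0.168% and 0.243% against 0.0431% in their control, and 5KO embryos reached 0.190% against at most 0.151% in the controls of that table. In Dnmt-TKO the edited embryos reached 0.078% and the controls 0.184%.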
